A study of Mus musculus with 12 samples.

Results

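The genes described here are 4 cyclins of the G1 phase of the cell cycle (Ccnd2, Ccnd3, Ccne1 and Ccne2) and 4 inhibitors of cyclin-dependent kinases (Cdkn1a, Cdkn1b, Cdkn2c and Cdkn2d). They were chosen by name, with earlier results of these data known. All 8 were found by symbol among the 16352 genes of the deposited count table. Their messenger RNA was followed in CD8 T cells, the cytotoxic lymphocytes of the adaptive immune system, as primary cells taken from C57BL/6 spleens. The 4 groups were wild-type (WT) cells at 0 h, WT cells at 48 h, Trmt61A-cKO cells at 0 h and Trmt61A-cKO cells at 48 h, with 3 libraries in each. The product of Trmt61a is the catalytic part of the writer of the m1A mark on tRNA, and the series title links this mark to cholesterol synthesis and to the antitumour activity of these cells. The promoter or Cre line that deletes Trmt61a in the conditional knockout (cKO), the ages of the mice and the treatment of the cells over the 48 h are not given in the labels used here. Nor do the labels say that each library came from its own mouse, so p-values measure the spread between libraries, part of which may be technical.

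A resting T cell sits outside the cell cycle and enters G1 when it is activated. D-type cyclins, here cyclin D2 (Ccnd2) and cyclin D3 (Ccnd3), bind the kinases CDK4 and CDK6 and start the phosphorylation of the retinoblastoma protein, which frees E2F transcription factors. E2F factors in turn drive the genes for the E-type cyclins (Ccne1 and Ccne2), which bind CDK2 and carry the cell into S phase. The INK4 inhibitors p18 (Cdkn2c) and p19 (Cdkn2d) bind CDK4 and CDK6 and keep D-type cyclins off them. The Cip/Kip inhibitors p21 (Cdkn1a) and p27 (Cdkn1b) act on cyclin E and CDK2, and p27 is known as a brake that resting T cells carry and dividing T cells lose, largely through destruction of the protein.

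Total counts ran from 34341847 to 40270659 per library, and all 8 genes passed the filter on low counts, on the 0 h libraries alone and on the 48 h libraries alone. Trmt61a itself was at 28.1 CPM (read counts scaled to the size of the library) at 0 h and 42.5 CPM at 48 h in the 2 libraries labelled cKO replicate 1, which is 101% and 111% of the WT mean. In the other 4 cKO libraries it was at 2.49% to 6.76% of the WT mean. The genotype comparisons of the 8 genes are therefore given as labelled and again without the libraries labelled cKO replicate 1. In both WT replicate 3 libraries the Y-linked genes Uty, Kdm5d and Eif2s3y had 0 counts, against at least 694 in each of the other 10 libraries. Leaving those WT libraries out changed the call of none of the 8 genes in any of the 5 comparisons. Between genotypes none of the 8 was called with all 12 libraries either, so no call could be lost there. Over all tested genes, calls of cKO against WT at 48 h went from 519 to 16 in that setting, and interactions from 14 to 0. Of the markers of the labelled cell type, Cd8a lay between 1337 and 1542 CPM in the 0 h libraries and between 666 and 747 CPM in the 48 h libraries, and the sum over 9 CD8 T cell markers between 5643 and 6284 CPM and between 2695 and 2794 CPM. For 12 B cell markers the sums were 112 to 236 CPM (0 h) and 22.4 to 35.6 CPM (48 h), and for 14 myeloid markers 83.0 to 114 CPM (0 h) and 33.3 to 39.7 CPM (48 h).

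The RefSeq promoter table (build GRCm38.p6) had 9 entries for 6 of the 8 genes and none for Ccnd2 and Ccne2. Each entry runs from 250 bases before to 50 bases after an annotated start site. The promoters of the 5 genes whose levels moved most clearly, among those with an entry, are printed here, 5′ to 3′ on the strand of the gene. Capitals mark a GC box (GGGCGG) or an E2F core (spelled TTCCCGC, or TTCGCGC, or TTGGCGC, or TTGCCGC), searched on both strands. Ccne1 lies on the minus strand at chr7:38107441-38107740, Cdkn1b on the plus strand at chr6:134920151-134920450, Cdkn1a on the plus strand at chr17:29093519-29093818, Cdkn2c on the minus strand at chr4:109666707-109667006, and Cdkn2d on the minus strand at chr9:21291160-21291459. Cdkn1a and Cdkn2c each have 1 more entry, without a match to either of these motifs.
Ccne1: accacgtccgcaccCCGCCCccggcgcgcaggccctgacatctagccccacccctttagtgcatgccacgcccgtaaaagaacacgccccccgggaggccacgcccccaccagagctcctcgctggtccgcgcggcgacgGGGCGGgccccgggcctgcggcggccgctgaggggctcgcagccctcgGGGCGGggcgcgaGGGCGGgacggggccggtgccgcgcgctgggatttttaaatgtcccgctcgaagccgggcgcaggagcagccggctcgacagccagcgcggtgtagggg
Cdkn1b: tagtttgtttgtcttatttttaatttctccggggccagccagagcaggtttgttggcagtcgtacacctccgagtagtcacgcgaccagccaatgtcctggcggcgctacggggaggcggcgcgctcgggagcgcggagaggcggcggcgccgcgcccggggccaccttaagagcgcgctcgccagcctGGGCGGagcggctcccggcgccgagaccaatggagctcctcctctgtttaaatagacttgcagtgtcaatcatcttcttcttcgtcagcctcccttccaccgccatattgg
Cdkn1a: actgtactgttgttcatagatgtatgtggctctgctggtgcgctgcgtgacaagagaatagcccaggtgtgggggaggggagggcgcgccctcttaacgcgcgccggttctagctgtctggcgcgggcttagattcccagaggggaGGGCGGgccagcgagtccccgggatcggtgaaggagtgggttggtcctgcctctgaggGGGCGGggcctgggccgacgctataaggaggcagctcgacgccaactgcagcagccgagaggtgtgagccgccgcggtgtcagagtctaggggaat
Cdkn2c: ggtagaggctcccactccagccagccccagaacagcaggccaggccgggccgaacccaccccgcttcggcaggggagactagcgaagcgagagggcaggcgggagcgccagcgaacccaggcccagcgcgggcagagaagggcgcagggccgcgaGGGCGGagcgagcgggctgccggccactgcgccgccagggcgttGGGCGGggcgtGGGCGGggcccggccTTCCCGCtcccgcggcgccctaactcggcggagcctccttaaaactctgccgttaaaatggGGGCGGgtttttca
Cdkn2d: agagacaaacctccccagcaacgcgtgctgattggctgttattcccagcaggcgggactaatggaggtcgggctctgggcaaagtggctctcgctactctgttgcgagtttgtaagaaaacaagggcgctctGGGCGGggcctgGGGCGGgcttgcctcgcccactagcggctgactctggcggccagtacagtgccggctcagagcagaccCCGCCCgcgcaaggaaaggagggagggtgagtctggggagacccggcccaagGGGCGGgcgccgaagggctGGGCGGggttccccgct
GC boxes numbered 4 in the Ccne1 promoter, 1 in Cdkn1b, 2 in Cdkn1a, 4 in Cdkn2c and 5 in Cdkn2d, and each of the 2 Ccnd3 entries held 2. A GC box was present in 35.66% of the 32851 promoters of the table. The E2F core was found in Cdkn2c only among the 9 entries, as TTCCCGC with its first base 25 bases before the start site and no overlap with a GC box, and it was present in 9.57% of all promoters. An E-box (CACGTG) was found in the further Cdkn2c entry only, against 7.15% of all promoters, and a forkhead site (GTAAACA) in 1 Ccnd3 entry only, against 3.65%. These matches describe letters in these windows. The genes that rose and the genes that fell over 48 h both included promoters with GC boxes.

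The first comparison asks how the 8 genes change between 0 h and 48 h. In WT cells 5 of the 8 rose and 2 fell, at an adjusted p under 0.05 in edgeR's quasi-likelihood test with Benjamini-Hochberg adjustment over 12404 tested genes. Over all tested genes 36.9% rose and 38.4% fell, and for 78.9% the WT groups of 3 libraries did not overlap, as was the case for 7 of the 8 genes. The median log2 fold change of the 8 was 1.86, against -0.02 over all tested genes. All 12 B cell markers and 12 of 14 myeloid markers fell in WT as well, and their part in the changes of the 8 genes was not tested. CPM values are relative to all mRNA of a library, and in such bulk samples fewer cells of a type and less RNA per cell cannot be told apart.

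**Figure D1:**
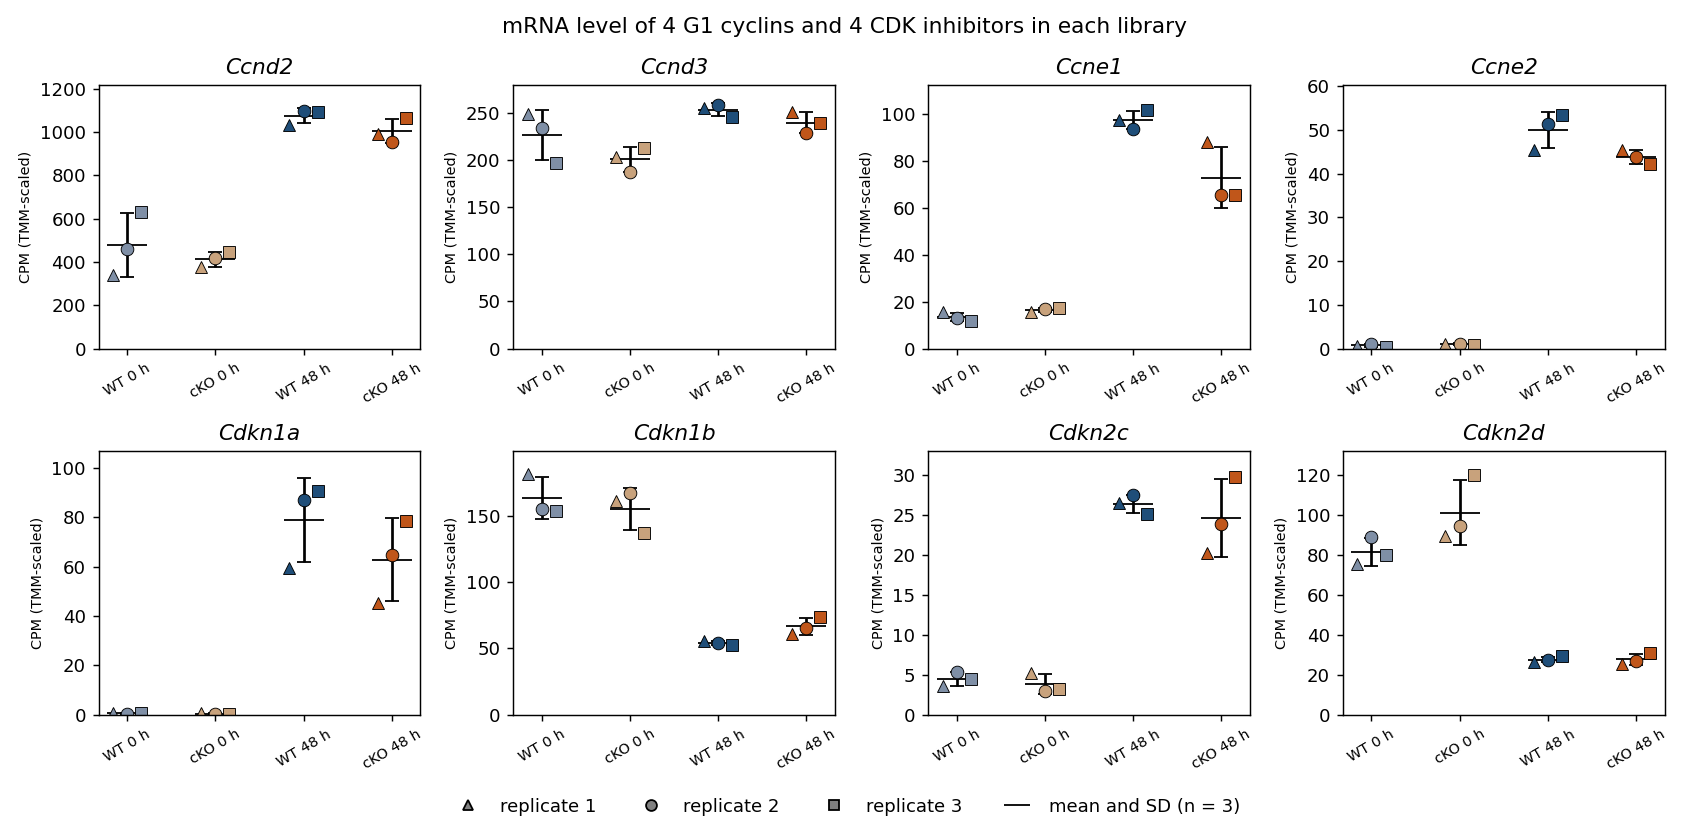
Level of each of the 8 genes in the 12 libraries, as TMM-scaled CPM on a linear axis from 0. Each point is 1 library with its shape giving the replicate number, and the bar is the mean with its SD (n = 3). Ccne1, Ccne2, Cdkn1a and Cdkn2c stand far higher at 48 h, Cdkn1b and Cdkn2d lower, and Ccnd3 near its 0 h level.

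Among the D-type cyclins, Ccnd2 rose in WT and Ccnd3 did not pass the test. In WT cells Ccnd2 stood at 342, 461 and 632 CPM at 0 h in replicates 1, 2 and 3, and at 1034, 1095 and 1094 CPM at 48 h. The groups did not overlap, although the 0 h libraries spread widely. Its level rose 2.25-fold, a log2 fold change of 1.17 ± 0.15 (SE, n = 3 against 3, adjusted p = 6.11e-06 in edgeR). The 0 h spread of Ccnd2, an SD of 146 CPM on a mean of 478 CPM in WT, was wider than in cKO cells, where it was 34.6 CPM on 413 CPM. The WT library with the most Ccnd2, replicate 3, also had the highest summed B cell markers, at 236 CPM, but replicate 1, with the least Ccnd2, had 177 CPM and replicate 2 had 133 CPM. Replicate 3 was also the WT library at 0 h with 0 counts for the Y-linked genes Uty, Kdm5d and Eif2s3y. The part of other cells, or of this Y-linked difference, in the spread of Ccnd2 was not tested.

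Ccnd3 was at 249, 234 and 197 CPM in WT at 0 h and at 255, 259 and 245 CPM at 48 h. The groups overlapped, since the highest 0 h library lay within the 48 h range. Its log2 fold change was 0.16 ± 0.08, with an adjusted p of 0.0988 in edgeR, and it was the only one of the 8 genes that did not pass in WT. Without WT replicate 1 at 0 h it did pass, with a log2 fold change of 0.23 and an adjusted p of 0.0297 over the 11 other libraries. In cells labelled cKO its 0 h libraries, at 203, 187 and 213 CPM, all lay below the 48 h libraries, at 251, 228 and 239 CPM. That rise of 19.3% passed (log2 fold change 0.25 ± 0.08, adjusted p = 0.0136 in edgeR) but was lost in 3 settings. It was lost with upper-quartile scaling (0.16, adjusted p = 0.0790), without cKO replicate 2 at 0 h (0.20, adjusted p = 0.0688) and without both libraries labelled cKO replicate 1 (0.23, adjusted p = 0.0657). The difference between the genotypes in the change of Ccnd3 had an adjusted p of 0.729.

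Both E-type cyclins rose. Ccne1, which encodes cyclin E1, was at 15.4, 12.9 and 11.9 CPM in WT at 0 h and at 97.4, 93.7 and 102 CPM at 48 h. The 48 h libraries lay close together, with an SD of 3.94 CPM on a mean of 97.6 CPM, far above the 0 h range. Ccne1 rose 7.27-fold, a log2 fold change of 2.86 ± 0.12 (adjusted p = 3.51e-11 in edgeR).

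Ccne2, which encodes cyclin E2, was nearly silent at 0 h, with 0.672, 1.10 and 0.412 CPM in WT libraries, or 23, 39 and 15 reads. At 48 h it was at 45.5, 51.3 and 53.5 CPM, from 1671 to 2174 reads. The groups were separated by more than the whole range of either, and the log2 fold change was 6.10 ± 0.22 (adjusted p = 4.75e-12 in edgeR). The size of so large a fold rests on the few reads at 0 h. Ints8, a gene on the opposite strand, shares 17.42% of the exon bases of Ccne2. The strand setting of the counting is not given in the sources used here, so reads of both genes there cannot be told apart. The like overlaps cover 4.11% of the Ccnd3 exons (Bysl), 7.68% of the Cdkn1a exons (AC167363.2) and, for Ccnd2, 3.95% (Gm43126) and 3.91% (9330179D12Rik).

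The Cip/Kip inhibitors moved in opposite directions. Cdkn1a, which encodes p21, had 18, 7 and 30 reads in WT at 0 h, or 0.526, 0.197 and 0.824 CPM. At 48 h it was at 59.6, 87.0 and 90.8 CPM, with WT replicate 1 the lowest. Its log2 fold change of 7.25 ± 0.32 (adjusted p = 4.43e-11 in edgeR) was the largest of the 8. Relative to its mean Cdkn1a also varied most of the 8 between libraries at 48 h, with an SD of 17.0 CPM on a mean of 79.1 CPM in WT and 16.8 CPM on 62.9 CPM in cKO.

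Cdkn1b, which encodes p27, was at 181, 155 and 153 CPM in WT at 0 h and at 55.3, 53.9 and 52.5 CPM at 48 h. The 48 h libraries were tight, and each lay below every 0 h library by a wide margin. Cdkn1b fell 3.03-fold, a log2 fold change of -1.60 ± 0.10 (adjusted p = 1.22e-09 in edgeR).

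The INK4 inhibitors also parted. Cdkn2c, which encodes p18, was at 3.62, 5.36 and 4.40 CPM in WT at 0 h and at 26.5, 27.4 and 25.1 CPM at 48 h. It rose 5.90-fold (log2 fold change 2.56 ± 0.21, adjusted p = 4.04e-08 in edgeR). Cdkn2d, which encodes p19, went the other way, from 75.4, 89.0 and 79.9 CPM at 0 h to 26.4, 27.2 and 29.2 CPM at 48 h. No 48 h library came near the 0 h range, and Cdkn2d fell 2.95-fold (log2 fold change -1.56 ± 0.11, adjusted p = 8.90e-09 in edgeR).

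**Figure D2:**
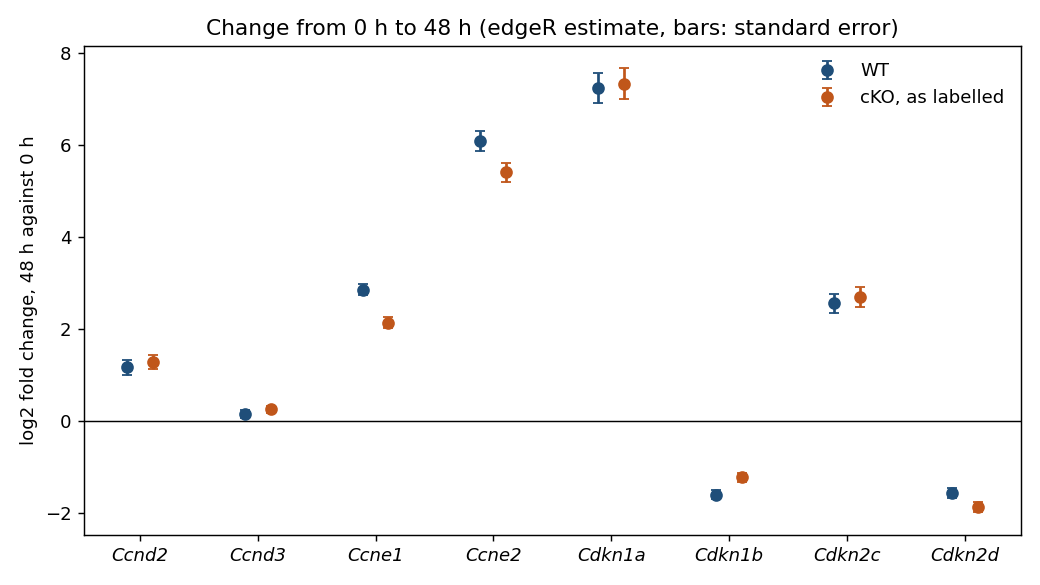
Log2 fold change from 0 h to 48 h of each gene in WT cells (blue) and in cells labelled cKO (orange), from 1 edgeR fit to 12 libraries, with standard errors as bars. Cdkn1a and Ccne2 rose most, Cdkn1b and Cdkn2d fell, and the estimates of the genotypes lie furthest apart for Ccne1, at 2.86 and 2.14, and Ccne2, at 6.10 and 5.42.

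In cells labelled cKO the same directions were seen, with 6 of the 8 genes higher and 2 lower. Over all tested genes 36.4% rose and 36.2% fell there, and 74.8% had groups without overlap, against 8 of 8 here. The log2 fold changes from 0 h to 48 h were 1.28 for Ccnd2, 2.14 for Ccne1, 5.42 for Ccne2, 7.34 for Cdkn1a, -1.22 for Cdkn1b, 2.69 for Cdkn2c and -1.87 for Cdkn2d. Without the libraries labelled cKO replicate 1 these 7 passed again, and Cdkn2c changed most, to 3.12. At 0 h the library labelled cKO replicate 1 held 5.23 CPM of Cdkn2c, and the other cKO libraries held 3.00 and 3.17 CPM.

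To compare the 8 genes with each other, CPM was divided by the length of the merged exons of the GENCODE mouse annotation. Merged exons join all annotated transcripts, with 1574 bases for Cdkn2d, 4552 for Cdkn1b and 8775 for Ccnd3. Which transcripts the cells used was not tested, and the order, shares and sums of the genes depend on these lengths. At 0 h in WT, Cdkn2d and Ccnd2 led, at 51.7 ± 4.39 and 50.8 ± 15.5 CPM per kilobase (SD, n = 3), and their libraries overlapped. Cdkn1b followed at 35.9 ± 3.42 CPM per kilobase, overlapping the range of Ccnd2 but below that of Cdkn2d, and Ccnd3 at 25.8 ± 3.04 lay below it without overlap. Ccne1 was at 5.04 and Cdkn2c at 1.66 CPM per kilobase, each apart from its neighbours, and Ccne2 (0.208) and Cdkn1a (0.145) came last with overlapping libraries. At 48 h the order was Ccnd2 (114 ± 3.70), Ccne1 (36.6 ± 1.48), Ccnd3 (28.8 ± 0.790), Cdkn1a (22.3 ± 4.79), Cdkn2d (17.5 ± 0.920), Ccne2 (14.3 ± 1.18), Cdkn1b (11.8 ± 0.316) and Cdkn2c (9.80 ± 0.431), all in CPM per kilobase. Of these neighbours only Cdkn1a and Cdkn2d overlapped. In cells labelled cKO at 48 h Cdkn1b (14.6 ± 1.38) stood above Ccne2 (12.5 ± 0.479), the reverse of the WT order.

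The 4 inhibitors thus made up their summed level differently at the start and at the end. At 0 h in WT, Cdkn2d gave 57.8% and Cdkn1b 40.2% of the length-scaled inhibitor mRNA, and Cdkn1a 0.165%. Without length scaling the order was the reverse, with Cdkn1b at 163 CPM and Cdkn2d at 81.4 CPM. At 48 h Cdkn1a gave 36.0%, Cdkn2d 28.6%, Cdkn1b 19.4% and Cdkn2c 16.0%. The sum over the 4 inhibitors went from 89.4 ± 3.18 to 61.4 ± 5.14 CPM per kilobase, and the sum over the 4 cyclins from 81.9 ± 11.8 to 194 ± 4.80. Neither pair of groups overlapped, and the sums were not tested. Among the cyclins the share of Ccnd2 was 61.1% at 0 h and 58.9% at 48 h, while Ccnd3 went from 32.3% to 14.9% and Ccne1 from 6.32% to 18.9%. In cells labelled cKO at 48 h Cdkn1a gave 29.6% and Cdkn1b 24.9% of the inhibitor sum.

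**Figure D3:**
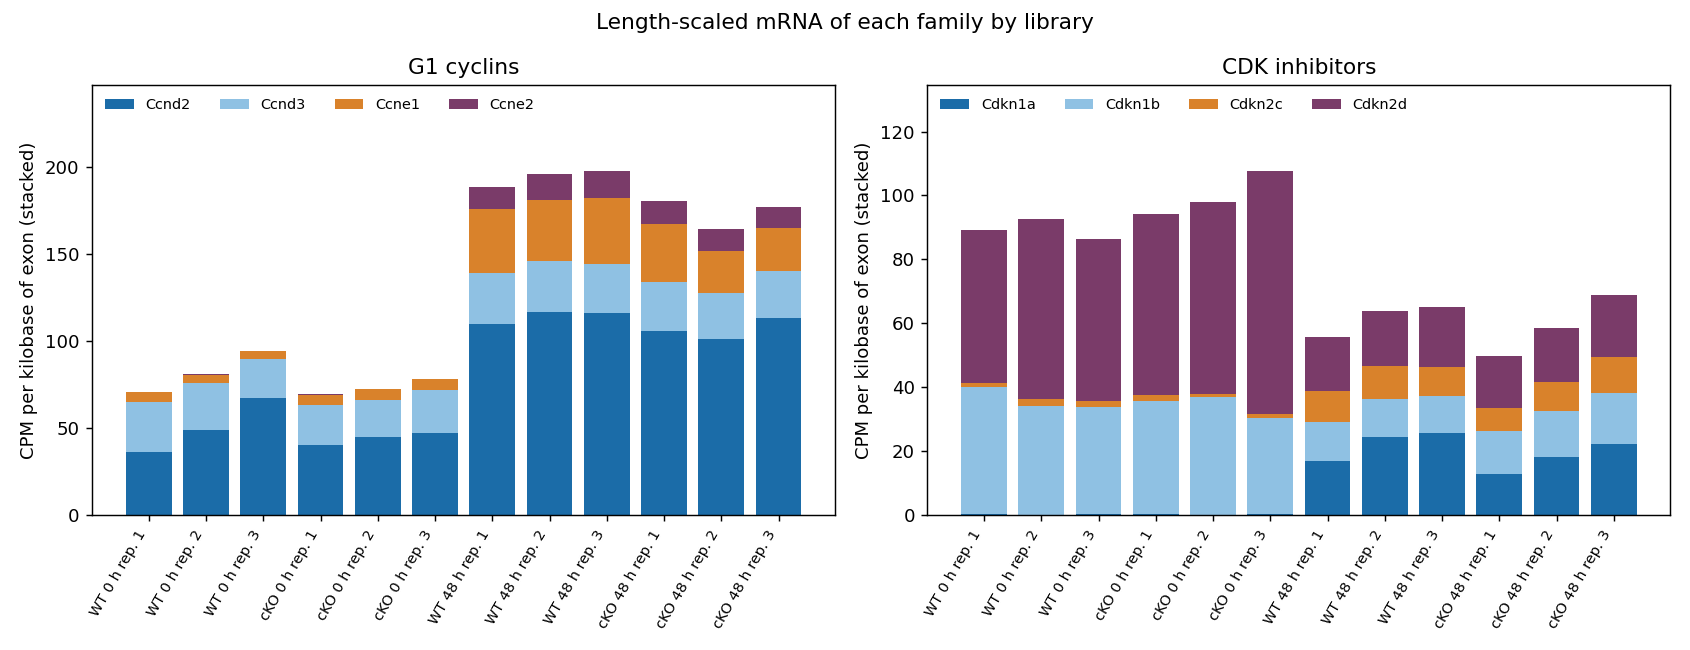
Length-scaled mRNA (CPM per kilobase of exon, stacked, linear axis from 0) of the 4 cyclins (left) and the 4 inhibitors (right) in each library. In WT the cyclin sum went from 81.9 to 194 and the inhibitor sum from 89.4 to 61.4, with larger blocks of Cdkn1a and Cdkn2c and smaller blocks of Cdkn2d and Cdkn1b at 48 h.

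The other genes of the G1 pathway were followed as 9 lists, of which 99 genes in all were tested. The lists, too, were chosen with earlier results of these data known. All 3 G1 kinases rose in WT: Cdk6 from 45.4 ± 6.12 to 317 ± 28.9 CPM (SD, n = 3), Cdk2 from 24.7 ± 4.30 to 94.99 ± 5.06 CPM and Cdk4 from 118 ± 3.02 to 316 ± 15.2 CPM. Their log2 fold changes were 2.80, 1.94 and 1.42. Of 5 further genes of the cyclin D and inhibitor families, Cdkn3, a phosphatase that acts on CDK2, rose (log2 fold change 5.67 ± 0.54), Ccnd1, the third D-type cyclin, fell from 2.13 to 0.291 CPM (-2.86 ± 0.84), and Cdkn1c, which encodes p57, did not pass (0.33 ± 0.84). Without both WT replicate 3 libraries Ccnd1 was at -2.20 and no longer passed (adjusted p = 0.0674 in edgeR). Cdkn2a and Cdkn2b, the remaining INK4 genes, had at most 8 reads in any library and were not tested.

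Regulators of CDK activity rose in 6 of 7 cases. Cdc25a, the phosphatase that activates CDK2, had a log2 fold change of 2.51 ± 0.10, and Wee1, the kinase that restrains CDK activity, one of 4.04 ± 0.20. Ccnh and Mnat1, partners of the CDK-activating kinase, rose by 0.90 and 0.74. Of 14 genes that control the destruction of p27, p21 and cyclin E, 10 rose and 2 fell. Dtl, which targets p21 for destruction in S phase, had a log2 fold change of 7.16 ± 0.22, and Cks1b, the cofactor with which SKP2 recognises p27, one of 4.67 ± 0.19. Cks2, a close relative of Cks1b, had 3.79 ± 0.16. The deubiquitinase Usp28, which opposes the cyclin E ligase FBXW7, fell (-1.76 ± 0.08).

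Among 13 pocket proteins and E2F factors 9 rose and 2 fell in WT. The 4 with the smallest adjusted p all rose, namely Tfdp1, the E2F partner (3.28), E2f1 (4.10), E2f3 (3.69) and E2f7 (6.67). All 14 markers of cycling cells rose, and their median was 5.64 in log2 fold change, against -0.02 over all tested genes. Of 19 genes of the p53 pathway, to which Cdkn1a belongs as a classical target, 13 rose and 5 fell with a median of 0.58. Gtse1 (4.57) and Zmat3 (1.66) rose and Trp53inp1 (-1.34) and Mdm4 (-1.14) fell. The list also holds regulators of p53 such as Mdm4, and the part of p53 in the rise of Cdkn1a was not tested.

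Of 15 regulators of T cell quiescence 10 fell and 2 rose, and the list had its median at -0.94 in log2 fold change. Klf2, a transcription factor of resting and recirculating T cells, fell by 5.09 ± 0.17 on the log2 scale, Btg1 by 1.98 ± 0.08 and Foxo1, which drives Cdkn1b in several cell types, by 1.51 ± 0.07. In the IL-2 receptor, STAT5 and MYC list 6 of 11 rose and 4 fell. Il2ra (8.32 ± 0.19), Il2 (10.3 ± 0.39) and Il2rb (2.25 ± 0.10) rose and Jak1 (-2.005 ± 0.08) fell. Over 23 other settings the log2 fold change of Il2 in WT ran from 9.78 to 13.02. The size of its rise is therefore known less closely than its standard error states. Adjusted p-values in edgeR for the genes named from these lists as risen or fallen were 0.00672 for Ccnd1 and smaller for the rest.

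**Figure D4:**
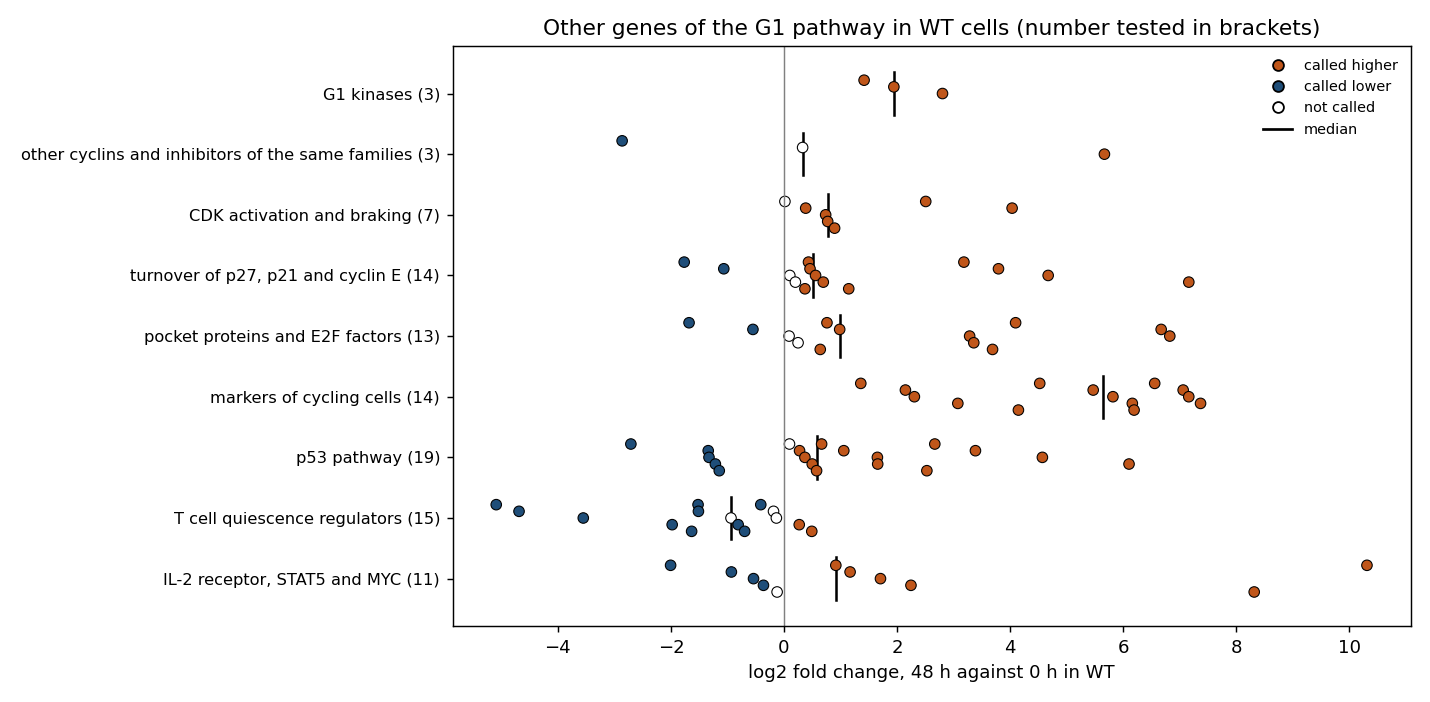
Log2 fold change from 0 h to 48 h in WT for the tested genes of 9 pathway lists. Each point is 1 gene, filled where edgeR called it, and the vertical line is the list's median. All 14 markers of cycling cells and all 3 G1 kinases lie above 0, whereas 10 of the 15 quiescence regulators were called lower.

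The genes whose pattern over the 12 libraries lay nearest to each of the 8 were found by the root mean square difference of centred log2 CPM, among 9385 genes with a mean of at least 5 CPM. For Ccne1 they were Tpst1 (0.08), Cdc25a (0.14) and Mif (0.16). For Ccne2 they were Sgo2a (0.27), Tk1 (0.28) and Neil3 (0.32), and for Cdkn1a they were Hmmr (0.39), Ccl4 (0.45) and Kif11 (0.45). Sgo2a, Hmmr and Kif11 encode proteins of the mitotic apparatus. Cdkn1b was followed most closely by Fam102a (0.09), Zscan26 (0.10) and Zcchc7 (0.10), and Cdkn2d by Shisa5 (0.11), Treml2 (0.11) and Yipf2 (0.13). The nearest to Cdkn2c were Hemk1, Fam71b and Mafg, to Ccnd2 Rexo2, Tmem256 and Ncf1, and to Ccnd3 Clptm1, Rbm15b and Cebpz. These distances describe 12 libraries in which 0 h and 48 h differ for most genes.

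The second comparison asks whether the knockout alters these genes in cells at 0 h. By edgeR none of the 8 was called at 0 h, where 0.00806% of all tested genes were. At an unadjusted p under 0.05 there were 2, Ccne1 and Cdkn2d, beside 1163 of the 12404 tested genes. Neither DESeq2, which called 44 of all tested genes, nor limma-voom, which called 0, called any of the 8. Ccne1 was at 15.7, 16.8 and 17.1 CPM in cKO, each above the highest WT library at 15.4 CPM. Its log2 fold change of 0.31 ± 0.12 had an adjusted p of 0.484. Cdkn2d was at 89.4, 94.5 and 120.0 CPM in cKO, against at most 89.0 CPM in WT, with a log2 fold change of 0.31 ± 0.11 and an adjusted p of 0.440. These were the 2 genes of the 8 whose groups did not overlap, a pattern seen in 14.7% of all tested genes.

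For the other 6 genes the genotypes overlapped at 0 h, Cdkn2c through the library labelled cKO replicate 1 alone (5.23 CPM, against 3.00 and 3.17 CPM in the other cKO libraries and 3.62 to 5.36 CPM in WT). The 95% confidence interval of the difference, cKO against WT, ran from -17.3% to 9.30% for Cdkn1b, from -21.8% to 0.372% for Ccnd3, from -31.0% to 8.06% for Ccnd2 and from -38.4% to 17.7% for Cdkn2c. It was wide for the nearly silent genes, from -66.2% to 63.6% for Cdkn1a and from -5.89% to 110% for Ccne2. Without the libraries labelled cKO replicate 1 again none of the 8 was called by edgeR, against 0.15% of 12643 genes tested. The 3 of the 8 with the smallest unadjusted p there are given first, an order taken from the values themselves. Cdkn2d then differed by 31.7% (interval 12.1% to 54.7%, adjusted p = 0.194), Ccne1 by 26.7% (8.86% to 47.4%, adjusted p = 0.216) and Cdkn2c by -30.9% (-47.2% to -9.54%, adjusted p = 0.256), all by edgeR. Their groups did not overlap there, as for 27.2% of the genes tested. The remaining intervals were -30.1% to 16.5% for Ccnd2, -23.3% to 1.48% for Ccnd3, -17.2% to 114% for Ccne2, -70.6% to 58.2% for Cdkn1a and -19.6% to 8.26% for Cdkn1b. At 0 h the sum of the 12 B cell markers was 133 to 236 CPM in WT and 112 to 135 CPM in cKO. The WT libraries held 15.2, 99.6 and 9.37 CPM of 8 erythroid markers, and the cKO libraries 56.2, 115 and 70.7 CPM. Their part in these values was not tested.

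The third comparison asks whether the knockout alters these genes at 48 h. By edgeR on all 12 libraries none of the 8 was called, while 3.1% of all tested genes were higher in cKO and 1.09% lower. Ccne1 and Cdkn1b came closest, and they moved in opposite directions. At an unadjusted p under 0.05 both passed, as did 2753 of the 12404 tested genes. DESeq2 called both, among 1094 of all tested genes, and limma-voom called Ccne1, among 661.

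Ccne1 was lower in every library labelled cKO at 48 h, at 88.1, 65.4 and 65.4 CPM against 97.4, 93.7 and 102 CPM in WT. The groups did not overlap, and the library labelled cKO replicate 1, in which Trmt61a was at the WT level, lay nearest to WT. The difference was -25.2%, with a 95% confidence interval from -36.8% to -11.5% (log2 fold change -0.42 ± 0.11, adjusted p = 0.0524 in edgeR). Cdkn1b was higher in every library labelled cKO, at 60.8, 65.5 and 73.3 CPM against 55.3, 53.9 and 52.5 CPM in WT, again with replicate 1 nearest to WT. It differed by 23.4%, with an interval from 7.13% to 42.1% (log2 fold change 0.30 ± 0.10, adjusted p = 0.0851 in edgeR). Groups without overlap, as for these 2 of the 8, were seen in 24.2% of all tested genes. Among 5 NK cell markers, Eomes, which activated CD8 T cells also express, gave nearly the whole sum at 48 h, at 110 to 118 CPM in WT and at 112, 64.3 and 76.0 CPM in cKO replicates 1, 2 and 3, again with replicate 1 at the WT level. Ncr1, an NK cell receptor, had 0 counts in all 6 libraries at 48 h. The part of these markers in the 2 differences was not tested, nor was that of the Trmt61a level. For Cdkn1a and Cdkn2c replicate 1 was, of the libraries labelled cKO at 48 h, the furthest from the WT mean.

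With both libraries labelled cKO replicate 1 left out, the 10 others gave calls for both genes. Ccne1 was lower in cKO by 33.0% (log2 fold change -0.58 ± 0.09, adjusted p = 0.00192 in edgeR). Cdkn1b was higher by 28.6% (log2 fold change 0.36 ± 0.10, adjusted p = 0.0252 in edgeR). Over all 12643 genes tested in those libraries 8.96% were higher and 8.78% lower. Leaving out the WT replicate 3 libraries as well was not tried. The adjusted p of Ccne1 ran from 0.00192 to 0.289 over the 22 other settings tried, and that of Cdkn1b from 0.0219 to 0.290. Ccne1 was called without WT replicate 1 at 0 h as well (-0.42, adjusted p = 0.0447). The value without cKO replicate 1 at 48 h alone was -0.57 for Ccne1 (adjusted p = 0.00201) and 0.37 for Cdkn1b (adjusted p = 0.0219).

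**Figure D5:**
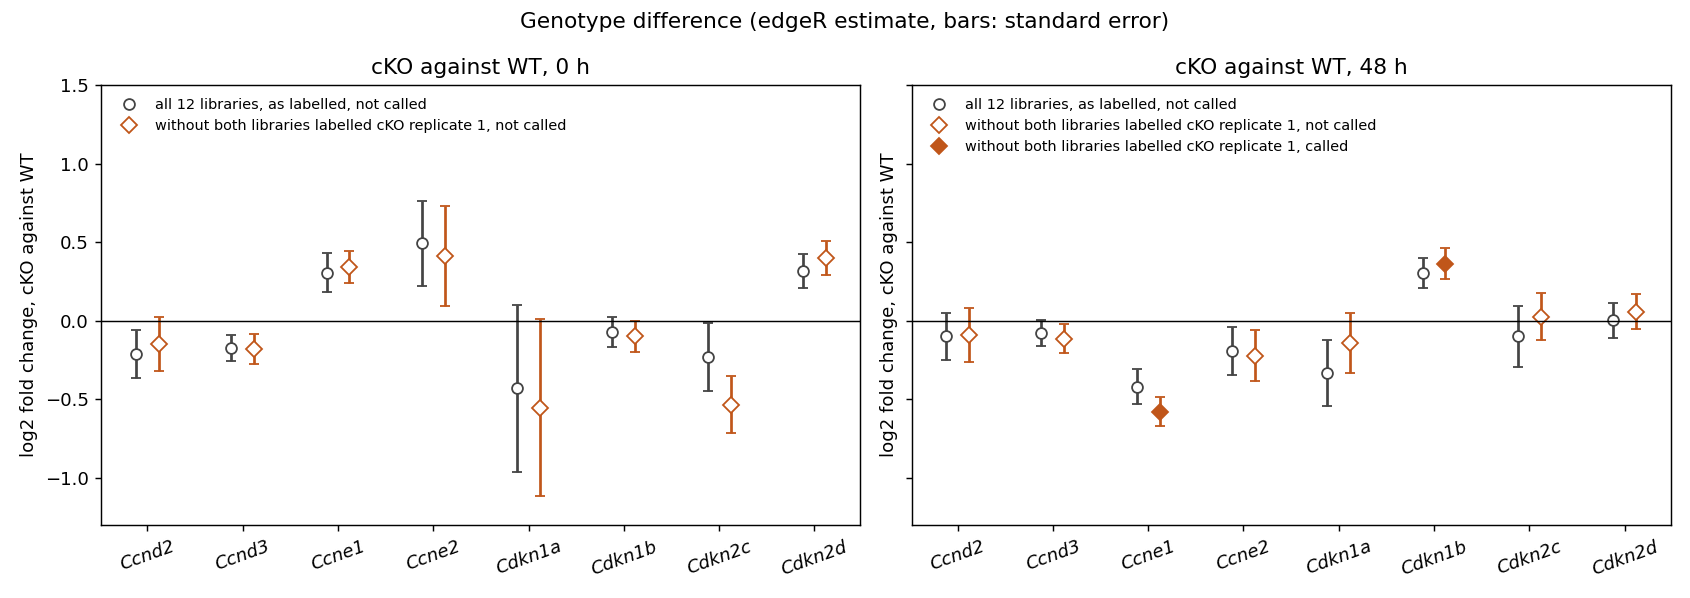
Log2 fold change of cKO against WT at 0 h (left) and 48 h (right) for each gene, with standard errors as bars, from all 12 libraries (circles) and without both libraries labelled cKO replicate 1 (diamonds, filled where called). At 48 h Ccne1 lies at -0.42 and -0.58 and Cdkn1b at 0.30 and 0.36, and no gene was called at 0 h.

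The other 6 genes overlapped between genotypes at 48 h and had adjusted p-values of 0.377 or more in edgeR. For Ccnd3 and Ccne2 the overlap came from the library labelled cKO replicate 1 alone. Cdkn1a was at 45.2, 64.7 and 78.6 CPM in cKO against WT values of 59.6, 87.0 and 90.8 CPM, with a WT mean of 79.1 CPM. Replicate 1 was the lowest in both genotypes and the cKO library furthest from that mean. The difference of Cdkn1a had an interval from -41.9% to 8.53%. For Ccne2, at 45.5, 43.8 and 42.2 CPM in cKO, the interval ran from -30.4% to 10.02%. The D-type cyclins were bounded more closely, from -25.3% to 16.7% for Ccnd2 and from -16.4% to 7.24% for Ccnd3. Cdkn2d differed by 0.195%, with an interval from -15.2% to 18.4%, and Cdkn2c had one from -29.9% to 24.5%. Its cKO libraries, at 20.1, 23.9 and 29.7 CPM, spread on both sides of WT, with replicate 1 furthest from the WT mean of 26.3 CPM.

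Without the library labelled cKO replicate 1, Ccnd3 was at 228 and 239 CPM in cKO at 48 h, below the 245 to 259 CPM of WT, and Ccne2 at 43.8 and 42.2 CPM, below 45.5 to 53.5 CPM. Groups without overlap, now 4 of the 8, were seen in 51.8% of the genes tested in those libraries. With both libraries so labelled left out, Ccnd3 differed by -7.59% (interval -19.6% to 6.26%) and Ccne2 by -14.2% (-32.9% to 9.67%), and neither passed. The intervals of the others were -27.3% to 21.01% for Ccnd2, -32.0% to 20.6% for Cdkn1a, -18.7% to 27.4% for Cdkn2c and -12.02% to 23.2% for Cdkn2d. Adjusted p-values of these 6 ran from 0.392 to 0.934 in edgeR.

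The interaction asks whether the change from 0 h to 48 h differs between genotypes. By edgeR it was called for none of the 8, and for 0.113% of all tested genes. At an unadjusted p under 0.05 there were 3, namely Ccne1, Ccne2 and Cdkn1b, beside 2073 of the 12404 tested genes. DESeq2 called Ccne1, among 470 of all tested genes, and limma-voom called none of the 8, with 19 of all tested genes called. The change of Ccne1 was smaller in cKO by 0.72 ± 0.17 on the log2 scale (adjusted p = 0.0822 in edgeR), with higher values at 0 h and lower values at 48 h than in WT. Without the libraries labelled cKO replicate 1 it was smaller by 0.92 ± 0.14, which passed (adjusted p = 0.00705 in edgeR), and without the 48 h one alone by 0.88 (adjusted p = 0.00498). With both left out the interaction passed for 6.87% of all genes tested. The fall of Cdkn1b was shallower in cKO by 0.38 ± 0.13 as labelled (adjusted p = 0.187) and by 0.46 ± 0.14 without those libraries (adjusted p = 0.0656), and it passed in neither.

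Of the 99 pathway genes 5.05% were called higher and 1.01% lower in cKO at 48 h, beside 3.1% and 1.09% of all tested genes. None of the 3 G1 kinases was called by edgeR as labelled, with 1 at an unadjusted p under 0.05 and none by DESeq2 or limma-voom. Cdk6 was at 395 ± 63.5 CPM in cKO and 317 ± 28.9 CPM in WT (log2 fold change 0.32 ± 0.12, adjusted p = 0.131). None of the 14 markers of cycling cells was called by edgeR, with 2 at an unadjusted p under 0.05, 1 called by DESeq2 and 3 by limma-voom. Over all 12404 tested genes those last numbers were 2753, 1094 and 661. The median log2 fold change of the 14 markers was -0.15, against 0.00 over all tested genes. Of the turnover list Rnf123, a subunit of a ubiquitin ligase for p27, was higher in cKO (0.35 ± 0.07, adjusted p = 0.0189 in edgeR), as was Usp28 (0.33 ± 0.08, adjusted p = 0.0428). Klf2 was higher (0.67 ± 0.15, adjusted p = 0.0275), and so were Mdm4, an inhibitor of p53 (0.34 ± 0.08, adjusted p = 0.0341), and Il2rg (0.30 ± 0.08, adjusted p = 0.0396). Il2rb, the receptor chain that signals for IL-2 and IL-15, was lower (-0.40 ± 0.09, adjusted p = 0.0338 in edgeR). Each of these 6 kept its direction in 22 other settings but lost its call in 6 to 9 of them, in each case when WT replicate 2, WT replicate 3 or cKO replicate 2 at 48 h was left out, or both WT replicate 3 libraries. The highest adjusted p of each ran from 0.111 for Rnf123 to 0.232 for Usp28. Without the libraries labelled cKO replicate 1 all 6 passed again, with log2 fold changes of 0.40 (Rnf123), 0.29 (Usp28), 0.70 (Klf2), 0.40 (Mdm4), 0.35 (Il2rg) and -0.52 (Il2rb).

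With the libraries labelled cKO replicate 1 left out, 24 of the 99 pathway genes were called at 48 h, 11.1% higher and 13.1% lower, beside 8.96% and 8.78% of all genes tested. Among the G1 kinases Cdk6 was higher in cKO (0.44 ± 0.10, adjusted p = 0.0109 in edgeR). Cdc37, the chaperone partner that loads CDK4 and other kinases (-0.56 ± 0.08), and Cdc25a (-0.36 ± 0.08) were lower. In the turnover list 2 were higher, Rnf123 and Usp28, and 3 were lower, Cks2 (-0.46 ± 0.11) and the SCF ubiquitin ligase subunits Skp1 (-0.26 ± 0.08) and Skp2 (-0.58 ± 0.18), of which Skp2 recognises p27. Rb1, the retinoblastoma protein, was higher (0.48 ± 0.10) and Tfdp1 lower (-0.28 ± 0.09).

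In the same libraries 3 of the 14 markers of cycling cells were lower, the replication licensing genes Cdc6 (-0.32 ± 0.09) and Cdt1 (-0.27 ± 0.07) and the mitotic cyclin Ccnb1 (-0.56 ± 0.11). Mki67 and Top2a were among the 11 not called. The p53 list had 3 higher and 2 lower, with Sesn2, a stress-induced gene, furthest from 0 (1.32 ± 0.20, adjusted p = 0.00123 in edgeR), Mdm4 higher, and Bax (-0.31 ± 0.08) and Perp (-0.89 ± 0.27), both linked to cell death, lower. Foxo1 (0.23 ± 0.07), Foxo3 (0.26 ± 0.08) and Klf2 made up the 3 higher quiescence regulators. In the IL-2 receptor list the kinase Akt1 (-0.42 ± 0.08) and Il2rb were lower and Il2rg was higher. Adjusted p-values of the genes named from these 10 libraries ran from 0.00107 for Cdc37 to 0.0458 for Tfdp1 in edgeR.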

How the data were processed

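The authors deposited raw read counts per gene for 12 libraries, as whole numbers, with totals of 34341847 to 40270659 per library. Per the labels' protocols, RNA was taken with TRIzol and libraries were made with a NEBNext Ultra kit. The submitters' processing notes name fastp 0.20.1, FastQC 0.11.9, HISAT2 2.1.0, SAMtools 1.9, HTSeq 0.11.2 and the build GRCm39, without settings or strand. The deposited counts were analysed in R 4.3.3 with edgeR 4.0.16, keeping genes by filterByExpr (minimum count 10, minimum total 15), which left 12404. Libraries were scaled by TMM factors, and 1 quasi-likelihood fit held all 4 groups (8 residual degrees of freedom). Calls used a two-sided p adjusted by Benjamini-Hochberg over all tested genes, under 0.05. Standard errors are the log2 fold change divided by the root of the F statistic, and 95% intervals use the t quantile of the test's total degrees of freedom. CPM errors are SDs over 3 libraries and cover no other source. Tested genes had a median count of 955, and counting error was under 10% for the mean count of each of the 8 genes except Ccne2 and Cdkn1a at 0 h.

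The named genes are the 8 genes and Trmt61a, the G1 kinases and the further family members in full, up to 4 genes with the smallest adjusted p of each other list, and the 3 genes nearest in pattern. Mki67, Top2a and, without the libraries labelled cKO replicate 1, Usp28 were named outside this rule. So were single genes of the cell-type, Y-linked and overlap checks. The genes and lists were chosen with earlier results of these data known. Exon lengths and overlaps come from GENCODE M21 and promoters from RefSeq, both on GRCm38, whereas the counts were made on GRCm39. The fitting steps were tested on simulated data. Alternatives were RLE and upper-quartile scaling, other filters, DESeq2 1.42.0, limma 3.58.1 with voom, fits of the 2 groups compared, replicate blocks, and leaving out libraries. Leaving out the libraries labelled cKO replicate 1 or WT replicate 3 was listed with their Trmt61a and Y-linked values known.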

Additional observations from a re-analysis of the deposited data

How the results depend on the processing

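Calls and directions of the 8 genes from 0 h to 48 h in WT and cKO held in every setting tried, apart from Ccnd3, whose calls in both genotypes changed as given in the report. Over the other comparisons no called value changed sign. None of the 8 was called at 0 h in any setting. At 48 h the count of the 8 called, 0 as reported, was 1 with upper-quartile scaling, no filter, a filter at 1 CPM, limma-voom and the block by replicate number, and 2 with DESeq2 and without both libraries labelled cKO replicate 1. For the interaction it was 1 with no filter, with DESeq2 and without both libraries labelled cKO replicate 1. Leaving out single libraries gave 0 to 2 at 48 h and 0 to 1 for the interaction. The causes were not tested. The same settings were applied to the pathway genes after their values had been seen.

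Over all tested genes, 1 called at 0 h became 6 with no filter, 44 with DESeq2, 0 with limma-voom or a fit of the 2 groups, 19 without both libraries labelled cKO replicate 1 and 0 without both of WT replicate 3 (0 to 8 leaving out single libraries). The 519 called at 48 h became 1094 with DESeq2, 138 with the 2 groups, 2243 without cKO replicate 1 and 16 without WT replicate 3 (53 to 2260). Of those called at 48 h 74.0% were higher in cKO with edgeR, 66.4% with DESeq2, 54.3% with limma-voom, 59.4% with the 2 groups and 50.5% without cKO replicate 1. The 14 interactions became 122 with no filter, 470 with DESeq2, 868 without cKO replicate 1, 0 without WT replicate 3, and 6 and 37 with the replicate block by number and by genotype and number (0 to 967). With upper-quartile scaling the change of the median gene from 0 h to 48 h shifted by -0.10 in WT and by -0.09 in cKO.

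Same-numbered 0 h and 48 h libraries deviated together weakly (r of 0.07, 0.10 and 0.15 in WT and 0.05, 0.06 and 0.03 in cKO), each correlating best with its own number, a hint from the data only, which did not hold between WT and cKO libraries. With the block by number Ccne1 at 48 h was at -0.43 (adjusted p = 0.0382 in edgeR). The block by genotype and number left 9247 genes called over time in WT and 8847 in cKO, against 9351 and 9004. It changed no call of the 8 over time or in the interaction, and was not applied to cKO against WT at 0 h or 48 h.

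Depth bears most on 2 of the 8 genes. Ccne2 and Cdkn1a had 7 to 40 reads at 0 h, where counting error alone is 17.0% to 27.7% of the group mean count, which limits the size of the genotype difference that can be seen there.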

Other observations

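Markers of CD4 and regulatory T cells, 5 genes that a CD8 T cell sample should hold little of, summed to 44.2 to 60.5 CPM in WT and 32.6 to 37.8 CPM in cKO among the 0 h libraries, without overlap, and to 57.1 to 87.9 CPM over all libraries at 48 h. The erythroid sum was at most 2.47 CPM in any library at 48 h. Of 14 myeloid markers edgeR called 2 higher in cKO at 48 h, beside 3.1% of all tested genes, and the myeloid sums of the genotypes overlapped there. DESeq2 called 1 of the 14, S100a9, which was at 1.07 to 1.94 CPM in cKO and 0 CPM in WT at 48 h.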
